A study of Mus musculus with 3 samples.

Results

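Solute carrier genes encode membrane proteins that move amino acids, sugars, nucleotides, metals and other ions into and out of cells and organelles. They were taken here as the protein-coding mouse genes whose symbol begins with Slc and a family number. A member also had a mean of at least 100 expected counts, the authors' estimate of reads per gene, over the 3 libraries of the study. Of 371 annotated genes with such a symbol, 7 were left out by name (Slc2a1, Slc7a2, Slc7a11, Slc11a1, Slc11a2, Slc25a1 and Slc40a1). Among the other 364 genes, 122 were members, or 33.5%. The same minimum was passed by 7077 of 22028 protein-coding genes, or 32.1%. The members were thus chosen by their mean expected counts, so their levels below are a description with no test.

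The samples were bone-marrow-derived macrophages of C57BL/6J mice, phagocytes grown in culture from marrow cells, with no genetic change, age or sex named in the labels. All had received 100 ng/ml lipid A, the membrane anchor of bacterial endotoxin that is sensed by TLR4, for 30 min. RNA of the chromatin fraction, which holds transcripts still being made or kept in the nucleus, was depleted of ribosomal RNA and sequenced. The single group holds 3 libraries with 16205704 to 17033725 expected counts each, and there is no untreated group among them, so no level can be called induced or repressed. The libraries are numbered as biological replicates but share 1 donor record, so the spread between them may be technical. Each was made from another amount of RNA (1000, 250 and 500 ng in libraries 1, 2 and 3), which cannot be told apart from other differences between replicates. All 6 macrophage markers were detected, with a summed level of 378, 412 and 543 TPM (a transcript level corrected for length and scaled to the same total in each library). Of 22 markers of other cell types 4 were detected and 7 were at 0, with summed levels of 2.04, 2.79 and 4.66 TPM. As these are bulk samples, fewer cells of a type and less RNA per cell cannot be told apart.

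Most carriers span the membrane as a bundle of helices that opens to either side in turn. Some are exchangers that swap a substrate for another, some use the sodium or proton gradient, and a few need a partner chain to reach the surface, as the light chains that pair with Slc3a2 do. In macrophages they are known for amino acid supply, for emptying and acidifying phagosomes and lysosomes, for handling iron and zinc, and for the sugar and lactate traffic of activated cells.

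The stretch before an annotated RefSeq start was available for 96 of the 122 members in RefSeq's table for build GRCm38.p6. The median distance of that start from the start of the gene's most abundant coding transcript was 18.5 nt. In 9 members (9.38%, beside 8.06% of coding genes past the same minimum) it was over 1 kb, and up to 68200 nt in Slc8a1, so those windows do not lie before that transcript. Of the 10 members at 50 TPM or more, 6 had such a window, and in 2 of these no base lay in an annotated untranslated region. Those 2 windows are printed, each as the 250 bases before the RefSeq start on the plus strand. They were chosen by level and by the lack of such bases, and searched motifs are given in capitals. The Slc9a9 window is chr9:94669642-94669891 and its RefSeq start lies 17 nt from that of the most abundant coding transcript, Slc9a9-201. The Slc43a2 window is chr11:75531444-75531693 and its RefSeq start lies 4 nt from that of Slc43a2-201.
Slc9a9: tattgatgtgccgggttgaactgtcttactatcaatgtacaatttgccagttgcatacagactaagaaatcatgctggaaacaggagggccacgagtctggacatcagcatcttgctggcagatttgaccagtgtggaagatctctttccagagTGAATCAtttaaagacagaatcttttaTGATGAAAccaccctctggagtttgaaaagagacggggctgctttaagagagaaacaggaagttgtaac
Slc43a2: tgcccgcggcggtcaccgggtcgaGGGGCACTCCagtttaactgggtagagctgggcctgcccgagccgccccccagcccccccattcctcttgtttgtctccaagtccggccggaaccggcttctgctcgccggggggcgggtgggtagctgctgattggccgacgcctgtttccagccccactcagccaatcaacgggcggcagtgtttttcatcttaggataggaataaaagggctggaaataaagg

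In the Slc9a9 window the capitals mark TGANTCA, an AP-1-like motif with any base at its centre (here A), at -96 to -90. They also mark TGATGNAA, a motif of the ATF4 and CHOP kind, at -69 to -62, counted back from the start. In the Slc43a2 window they mark the NF-kB motif at -226 to -217. The windows differ in base makeup, with 3 CpG dinucleotides in that of Slc9a9 and 17 in that of Slc43a2. The median over the 96 windows was 14.5, beside 17.0 over the windows of 5708 coding genes past the same minimum. Each motif was searched on both strands in these 250 bases. TGANTCA was in 9.4% of the member windows and 4.4% of those of the 5708 genes. Its 9 members were Slc2a9, Slc26a1, Slc7a1, Slc25a13, Slc38a7, Slc37a2, Slc9a9, Slc25a11 and Slc38a10. The NF-kB motif was in 4 member windows (Slc43a2, Slc25a10, Slc25a17 and Slc35b2), or 4.2% beside 9.1%. CACGTG, the E-box bound by MITF and TFEB among others, was in 10.4% beside 9.0%, and Slc20a1 held it at 2 places. TGACGTCA, the full CRE, was in 3.1% of both, with Slc25a25, Slc25a36 and Slc38a6. Of the members named for a motif, Slc25a36 and Slc2a9 have windows 10821 and 3079 nt from the start of their most abundant coding transcript. TATAAA was in 5.2% beside 5.7%, CCGGAAGT, the ETS motif, in 2.1% beside 7.2%, and TGATGNAA in 1.0% beside 1.9%. The lists of windows are small and no test was made of these shares, and a match is a description of letters and not a bound site.

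The carriers as a whole sat near the level of other coding genes past the minimum, and slightly below it in each library. The median member had 7.29, 8.18 and 12.7 TPM in libraries 1, 2 and 3, a mean of 9.39 ± 2.90 (SD, n = 3). Over the 7077 genes the median was 7.79, 9.51 and 13.9 TPM, a mean of 10.4 ± 3.18. Together the members held 0.829% ± 0.0457 (SD, n = 3) of all expected counts and 1.44% ± 0.0210 of the TPM of coding genes. An average of 100 TPM or more was reached by 6 members (4.92%, beside 4.52% of the 7077 genes), 20 TPM or more by 32 (26.2%, beside 31.0%) and 5 TPM or more by 87 (71.3%, beside 75.9%). The 6 highest members held 38.6% of the TPM of all 122.

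TPM was highest in library 3 for 114 of the 122 members (93.4%), as it was for 90.7% of the 7077 genes. Genes under 300 nt took 72.9%, 66.3% and 56.7% of all TPM in libraries 1, 2 and 3. With the TPM of genes of 300 nt or longer rescaled to the same total, the median member had 27.0, 24.3 and 29.4 TPM. Differences between libraries are therefore described further below in log2 CPM, counts per library total scaled by TMM, and TPM is used to set genes against each other.

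Slc6a6, the taurine carrier (ENSMUSG00000030096.8, chromosome 6, 91684053 to 91759066, build mm10), had the highest mean, with 235, 203 and 289 TPM in libraries 1, 2 and 3, or 242 ± 43.1 (SD, n = 3). Slc9a9, a sodium-proton exchanger of endosomes (ENSMUSG00000031129.9, chromosome 9, 94669909 to 95230445), had 156, 184 and 323 TPM. Slc20a1, a sodium-driven phosphate importer of the plasma membrane (ENSMUSG00000027397.14, chromosome 2, 129198764 to 129211616), had 129.8, 210 and 193 TPM. A different gene led in each library: Slc6a6 in library 1, Slc20a1 in library 2 and Slc9a9 in library 3. The order among these 3 genes is therefore not settled by these values. A second quantification of the same reads put Slc6a6 first among the 3 in every library, with 505, 282 and 449 TPM. There Slc9a9 had 202, 165 and 306 TPM, and Slc20a1 had 151, 169 and 180.1 TPM.

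Slc43a2, a uniporter of large neutral amino acids (ENSMUSG00000038178.16, chromosome 11, 75531694 to 75577575), had 129, 149 and 205 TPM. Slc25a3, the phosphate carrier of the inner mitochondrial membrane (ENSMUSG00000061904.12, chromosome 10, 91116574 to 91124059, minus strand), had 91.4, 129.6 and 219 TPM. Slc15a3, a lysosomal carrier of histidine and small peptides (ENSMUSG00000024737.2, chromosome 19, 10839727 to 10859362), had 86.3, 105 and 175 TPM. In TPM, library 1 was lowest and library 3 highest in each of these genes, and their ranges overlap each other. Expected counts rose in the same order in Slc25a3 (4589, 5894 and 7370) and Slc15a3 (7634, 8545 and 9713). In Slc43a2 they fell instead, with 15033, 14535 and 13361 in libraries 1, 2 and 3. All 6 genes stood above 96.6% or more of the 7077 coding genes.

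**Figure D1:**
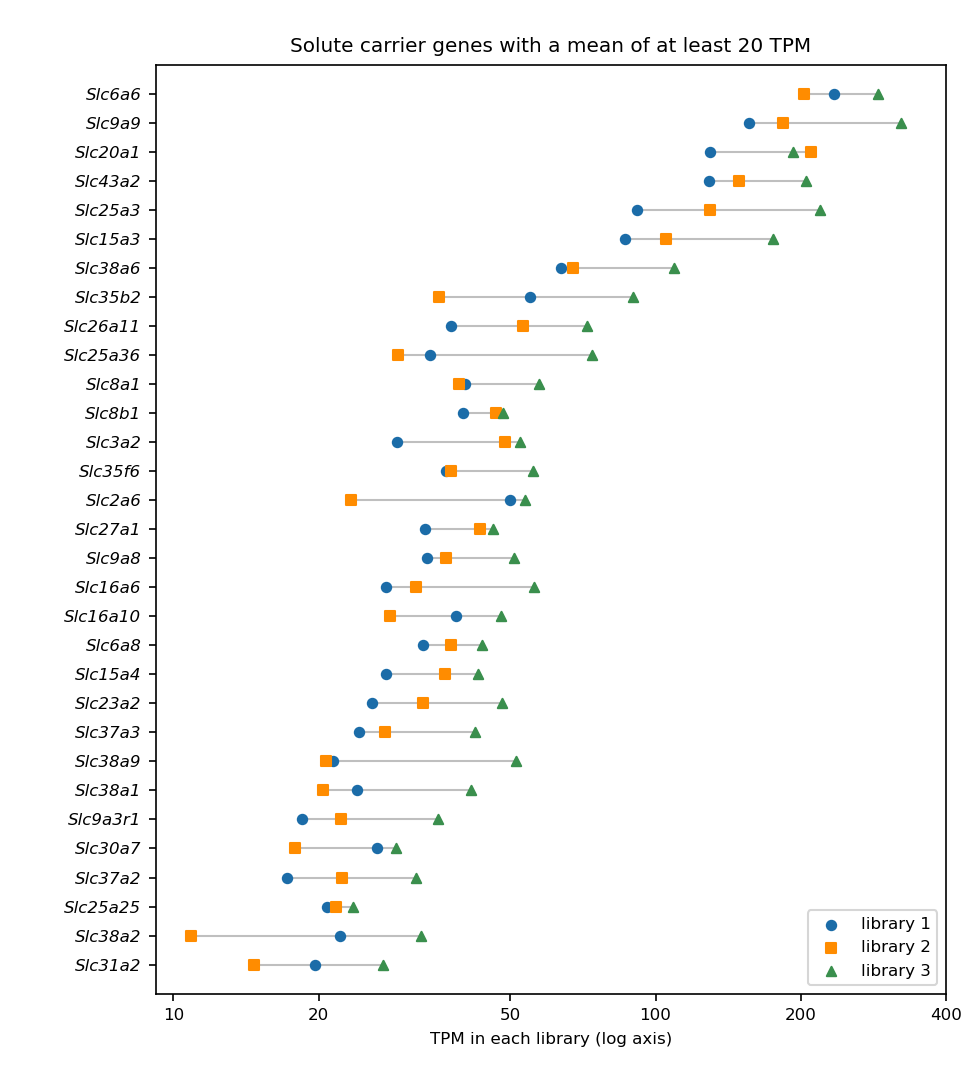
TPM (log axis) of 31 of the 32 members averaging 20 TPM or more, with a circle for library 1, a square for library 2, a triangle for library 3 and a line over their range. Library 3 is rightmost in nearly every line, Slc20a1 is highest in library 2, and Slc38a2 and Slc2a6 are among the genes lowest in library 2.

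Amino acid carriers had 16 members of 59 annotated genes, with a median of 14.8 TPM ± 4.45 (SD, n = 3), and 7 of them averaged 20 TPM or more. Below Slc6a6 and Slc43a2 came Slc38a6, of the sodium-coupled neutral amino acid family, with 63.8, 67.5 and 109 TPM. Slc3a2, the heavy chain that brings several amino acid exchangers to the surface, had 29.1, 48.8 and 52.3 TPM. Its best known light chain, Slc7a5, was not a member: it had 3, 11 and 4 expected counts, a mean of 6.00. Other light chains of Slc3a2 were members at lower levels than Slc3a2 itself, with means of 11.1 TPM for Slc7a8, 3.64 TPM for Slc7a7 and 1.54 TPM for Slc7a6. Slc3a2 was above each of them in every library.

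Slc6a8, the creatine carrier, had 33.0, 37.7 and 43.6 TPM. Of the sodium-coupled glutamine carriers, Slc38a1 had 24.0, 20.4 and 41.4 TPM and Slc38a2 had 22.2, 10.9 and 32.7 TPM. Both were lowest in library 2. Slc1a5, which exchanges glutamine and other neutral amino acids, had 3.02, 4.55 and 5.36 TPM, and the arginine importer Slc7a1 had 2.46, 3.40 and 5.18 TPM. These importers were low in all 3 libraries beside Slc6a6 and Slc43a2.

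Carriers of lysosomes and of peptides had 11 members of 18 annotated genes, with a median of 10.5 TPM ± 4.02 (SD, n = 3). After Slc15a3 came Slc26a11, an anion carrier, with 37.7, 53.1 and 72.2 TPM. Slc15a4, a close relative of Slc15a3 that is needed for endosomal Toll-like receptor signalling, had 27.6, 36.6 and 42.8 TPM, below Slc15a3 in each library. Slc38a9, the lysosomal arginine sensor upstream of mTORC1, had 21.4, 20.7 and 51.4 TPM. Slc29a3, the lysosomal nucleoside carrier, had 4.51, 5.50 and 12.4 TPM. The members of this group thus ran from 122 TPM for Slc15a3 down to 4.18 TPM for Slc17a9, the vesicular nucleotide carrier.

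Sugar carriers had 8 members of 31 annotated genes, with a median of 7.60 TPM ± 2.69 (SD, n = 3). Slc2a6, a hexose carrier of intracellular membranes, had 49.8, 23.3 and 53.7 TPM, with library 2 far below the others. Slc37a3 had 24.3, 27.5 and 42.3 TPM, and Slc37a2, a sugar-phosphate exchanger of the endoplasmic reticulum, had 17.2, 22.4 and 31.9 TPM. Among monocarboxylate and citrate carriers 4 of 19 genes were members, with a median of 22.5 TPM ± 7.83. Slc16a6 had 27.6, 31.8 and 56.0 TPM, and Slc16a10, which carries aromatic amino acids and thyroid hormone, had 38.6, 28.1 and 47.9 TPM. The lactate exporter Slc16a3 had 4.05, 5.55 and 15.0 TPM. Its relative Slc16a1, which imports and exports lactate and pyruvate, had 7, 3 and 2 expected counts and was not a member.

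Phosphate carriers and the sodium, proton and calcium exchangers held several of the highest genes. Of 5 phosphate carriers 2 were members, Slc20a1 and Slc20a2, and the latter had 2.52, 3.21 and 4.12 TPM, far below Slc20a1 in every library. Exchangers of sodium, protons and calcium had 6 members of 20 and a median of 27.5 TPM ± 6.97 (SD, n = 3). After Slc9a9 came the plasma membrane sodium-calcium exchanger Slc8a1, with 40.2, 39.2 and 57.3 TPM, and Slc9a8 with a mean of 40.4 TPM. Slc9a9 was above Slc8a1 in each library.

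Chloride, bicarbonate and sulfate carriers had 11 members of 29, with a median of 9.68 TPM ± 1.75 (SD, n = 3). Slc12a7, a potassium-chloride cotransporter, had 13.5, 21.1 and 20.7 TPM. Slc12a2, which takes up sodium, potassium and chloride together, had 0.93, 1.38 and 1.97 TPM, the lowest of the group. Slc12a7 stood above Slc12a2 in every library.

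Metal ion carriers had 15 members of 29, with a median of 7.74 TPM ± 1.58 (SD, n = 3). Slc30a7, which loads zinc into the Golgi, had 26.4, 17.9 and 28.9 TPM. The plasma membrane zinc exporter Slc30a1 missed the minimum with a mean of 91.7 expected counts. Slc39a14, an importer of zinc, iron and manganese, had 2.40, 4.18 and 6.77 TPM. Of the copper carriers, Slc31a2 had 19.7, 14.7 and 27.2 TPM and Slc31a1, the main copper importer of the plasma membrane, had 4.48, 2.38 and 5.38 TPM. Both copper carriers were lowest in library 2, and Slc31a2 was above Slc31a1 in each library.

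Mitochondrial carriers made the largest group, with 25 members of 47. Their median was 7.82 TPM ± 2.71 (SD, n = 3), and 4 averaged 20 TPM or more. After Slc25a3 came Slc25a36, a pyrimidine nucleotide carrier, with 34.0, 29.2 and 73.7 TPM, and Slc8b1, the mitochondrial sodium-calcium exchanger, with 39.8, 46.6 and 48.2 TPM. Slc25a25, a calcium-regulated ATP-magnesium carrier, had 20.8, 21.7 and 23.6 TPM, a narrow range in TPM beside Slc25a36. Expected counts of Slc25a25 were 1197, 1064 and 797, lowest in library 3. The iron importers mitoferrin 1 (Slc25a37) and mitoferrin 2 (Slc25a28) had means of 16.7 TPM ± 6.20 and 18.9 TPM ± 7.99 (SD, n = 3). Slc25a37 had 15.8, 10.9 and 23.2 TPM and Slc25a28 had 11.9, 17.1 and 27.6 TPM, so Slc25a37 was higher in library 1 only. In the second quantification Slc25a37 was higher on average, with 27.6 against 15.7 TPM, so their order is not settled. Slc25a5, an ADP/ATP carrier, had 5.51, 7.64 and 8.01 TPM.

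Carriers of nucleotide sugars and of the Golgi had 10 members of 27 and a median of 6.20 TPM ± 2.39 (SD, n = 3). Slc35b2, which brings the sulfate donor PAPS into the Golgi, had 54.8, 35.5 and 90.0 TPM, with library 2 lowest. Slc35f6 had 36.8, 37.7 and 55.7 TPM. Nucleoside carriers had 2 members of 6, the concentrating purine nucleoside carrier Slc28a2 with 10.5, 11.6 and 11.5 TPM and the equilibrating Slc29a1 with 8.20, 7.41 and 13.6 TPM. In TPM, Slc28a2 was nearly level over the libraries while Slc29a1 was highest in library 3, and the values of both genes overlap. In expected counts, Slc28a2 was lowest in library 3 (718, 729 and 475) and Slc29a1 was not highest there (245, 213 and 239).

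Carriers of vitamins, heme and choline had 4 members of 19. The vitamin C carrier Slc23a2 had 25.8, 33.0 and 48.0 TPM and stood above the others of the group in every library. The choline carrier Slc44a1 had 4.09, 4.09 and 6.40 TPM, and Slc48a1, which exports heme from phagolysosomes, had 2.59, 3.70 and 4.96 TPM. The fatty acid carrier Slc27a1 was the single member of 7 genes in its group, with 33.3, 43.2 and 46.1 TPM.

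Among 38 carriers of organic ions and bile salts 4 were members, and 25 had no count in any library. Slc10a1, the bile salt importer of liver cells, had 7.38, 6.03 and 18.1 TPM, and Slc10a7 had 6.30, 6.43 and 11.8 TPM. Slc10a7 was higher in library 2 and, with 24.7 against 20.2 TPM, in the second quantification, so their order is not settled. Slc10a1 lies tail to tail with the splicing factor gene Srsf5, whose end is 2675 nt away and whose mean level was 429 TPM. Slc10a1 was the only member (0.820%, beside 0.848% of the 7077 genes) with such a neighbour within 5 kb at over 10 times its own TPM, and whether reads running on from Srsf5 enter its value was not tested. None of the 6 carriers of amines, urea and ammonium was a member.

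The symbol rule also took in 3 genes that are not carriers. Slc9a3r1, a scaffold protein that binds the tails of membrane proteins, had 18.5, 22.3 and 35.3 TPM. Slc7a6os, named for its place beside Slc7a6 on the opposite strand, had a mean of 12.7 TPM, and Slc4a1ap, named as an adaptor of an anion exchanger, had 11.0 TPM. They held 1.76% of the members' TPM and were kept in the counts above.

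**Figure D2:**
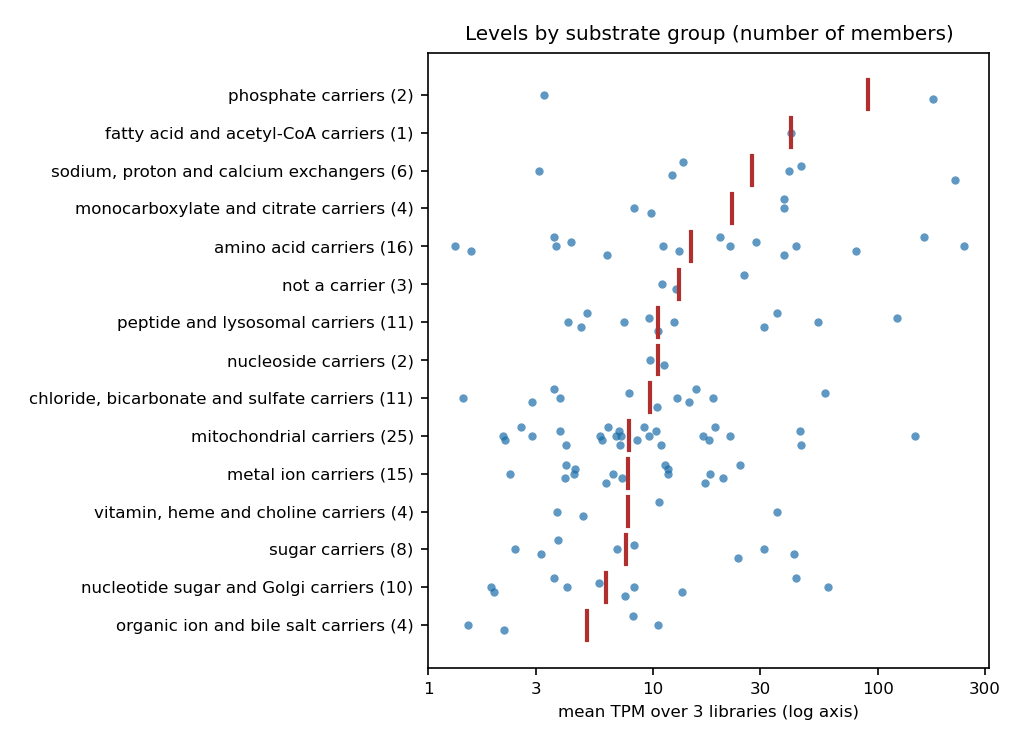
Mean TPM over the 3 libraries (log axis) of each of the 122 members by substrate group, with the number of members in brackets and a bar at the mean over libraries of the group's median. Every group with 3 or more members spans at least a 2-fold range, and the highest member of the amino acid group, at 242 TPM, lies far from its median of 14.8 TPM.

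At the minimum itself, the members just inside were Slc25a38 with a mean of 101 expected counts, Slc2a8 with 103 and Slc39a11 with 103. Just outside were Slc22a21 with 99.4, Slc25a30 with 97.7 and Slc52a2 with 95.7. In all, 70 genes had 10 to under 100 expected counts and 172 had fewer than 10. No count in any library was given to 90 genes. A count of 0 allows up to 3 counts at 95% confidence, or 0.184, 0.176 and 0.185 CPM in libraries 1, 2 and 3, counting error only. The second quantification of the same reads gave no count to 37 of those 90. Of 47 families, 35 had a member. Slc25, the mitochondrial family, had 24 of 46, Slc39 of zinc importers had 8 of 14 and Slc38 of neutral amino acid carriers had 6 of 11. The neurotransmitter and amino acid family Slc6 had 3 of 21, the organic ion family Slc22 had 2 of 25 and the sodium-glucose family Slc5 had 1 of 13.

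Once scaled by TMM, the range between libraries in the carriers was close to that of other coding genes. The median range over the 3 libraries was 0.44 in log2 CPM, beside 0.42 over the 7077 coding genes less 1 without a value. A range of at least 0.5 was found in 53 members (43.4%, beside 39.1%) and a range of at least 1 in 8 (6.56%, beside 6.73%). Library 1 was the highest for 49 members, library 2 for 36 and library 3 for 37, or 40.2%, 29.5% and 30.3%. Over the coding genes these shares were 28.5%, 39.9% and 31.6%. The median deviation of the members from their own mean was 0.04, -0.01 and -0.02 in log2 CPM, beside 0.00, 0.03 and -0.03 over the coding genes.

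Slc15a2, a proton-driven importer of peptides, had the widest range. It had 193, 154 and 37 expected counts, or 3.65, 3.22 and 1.10 in log2 CPM, so that library 3 lay far below the others. Slc5a3, the importer of myo-inositol, had 6.47, 5.01 and 5.46 in log2 CPM, and Slc2a6 had 7.62, 6.29 and 6.83. Slc38a2 had 7.65, 6.40 and 7.31, and Slc25a18, a mitochondrial glutamate carrier, had 5.03, 3.84 and 4.45. In these 4 genes library 1 was highest and library 2 lowest. Slc25a20, which brings acylcarnitines into mitochondria, had 3.19, 4.39 and 4.03, with library 1 lowest. The narrowest ranges included 0.02 for Slc9a3r1, 0.06 for Slc37a2 and 0.07 for Slc7a1.

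Whether a gene varied between libraries more than genes of its abundance do was tested over all genes by edgeR's quasi-likelihood method, with p-values adjusted by Benjamini-Hochberg and a threshold of 0.05. Of 13309 genes 0 were called (0%), and so 0 of the 122 members. In simulated counts the test found 51 of 100 genes changed 4-fold in library 1 and 100 of 100 changed 8-fold. The changed genes all had a mean of at least 100 counts. Counts were drawn at the spread usual for each abundance, with no variation between genes around it, so these shares may not hold in the real data. Having 0 calls therefore does not show equal levels. At an unadjusted p under 0.05 there were 655 of the 13309 genes (4.92%), 7 of them members, a share near that of all genes. DESeq2 marked 54 of the 13309 genes as dispersion outliers (0.406%), of which 1 was a member, Slc15a2. Its unadjusted p in the edgeR fit was 0.0039 and its Benjamini-Hochberg adjusted p 0.62, the smallest of any member. Without library 2 the edgeR fit called 49 genes (0.360%), with Slc15a2 the only member among them. Without library 1 it called 17 (0.125%), with 0 members. With no filter on low counts it called 117 of 23976 genes (0.488%), again with Slc15a2 as the only member.

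**Figure D3:**
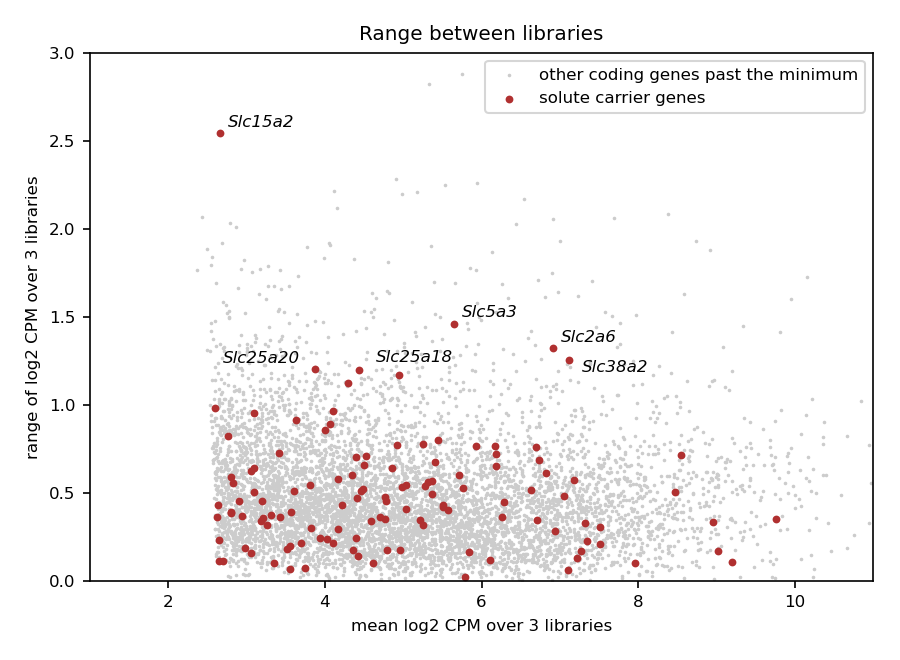
Range of log2 CPM over the 3 libraries against mean log2 CPM, with members in red and other coding genes past the minimum in grey (20 coding genes lie outside the axes). Slc15a2 stands at 2.55 near the low end of abundance, and the other members lie within the cloud of coding genes.

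Transcripts annotated as noncoding took a large part of the carriers' TPM. As TPM is corrected for length, a short transcript weighs more per read than a long one. Such types are transcripts that keep an intron, processed transcripts without a reading frame and targets of nonsense-mediated decay. In the first quantification the transcript with the highest mean TPM was noncoding in 45 members (36.9%, beside 31.3% of the 7077 genes). Of these 45, 28 kept an intron, 14 were processed transcripts and 3 were decay targets. In the second quantification it was noncoding in 56 members (45.9%, as over the coding genes), and in 33 it was so in both (27.0%, beside 26.7%). The noncoding share of a member's TPM had a median of 45.7% ± 1.44 (SD over the libraries, n = 3), beside 41.6% ± 0.222. In the second quantification the medians were close, with 51.0% ± 1.13 beside 50.7% ± 0.837. Reads of unspliced RNA can fall on transcripts that keep an intron, and the part of such reads was not tested.

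In Slc6a6 the noncoding share was 79.2%, 77.6% and 72.2% in libraries 1, 2 and 3. Its leading transcript, Slc6a6-208, keeps an intron, is 481 nt long and had 55.5, 46.6 and 63.4 TPM, while the full coding transcript Slc6a6-201 of 6186 nt had 34.6, 36.4 and 69.8 TPM. The leading transcript was the same in both quantifications. In Slc25a3 the share was 85.7%, 80.3% and 78.6%, led by Slc25a3-208, which keeps introns over 4039 nt. In Slc27a1 it was 99.0%, 98.0% and 100.0%, and the coding transcript Slc27a1-201 was listed at 0 TPM in each library by the first quantification and at a mean of 1.65 TPM by the second.

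Slc2a6 had a noncoding share of 89.1%, 95.4% and 96.2%, with the processed transcript Slc2a6-203 leading, and Slc9a8 had 93.5%, 92.8% and 91.3%. Slc38a9 had 73.4%, 70.1% and 79.8%, and Slc38a2 had 54.3%, 53.4% and 56.2%. Slc30a7 had 79.7%, 77.4% and 69.3%, but a different noncoding transcript led in each quantification, Slc30a7-202 by the first and Slc30a7-203 by the second. Of these 5 genes, Slc9a8 and Slc38a2 moved least between libraries and Slc30a7 and Slc38a9 most. At the other end Slc3a2 had a mean noncoding share of 5.67% by the first quantification and 2.31% by the second. Slc9a9 was nearly even, with 50.7% of its abundance in the coding Slc9a9-201 and 44.9% in the processed Slc9a9-203. Of the members, 10 had no noncoding transcript annotated (8.20%, beside 12.7% of the coding genes past the minimum).

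**Figure D4:**
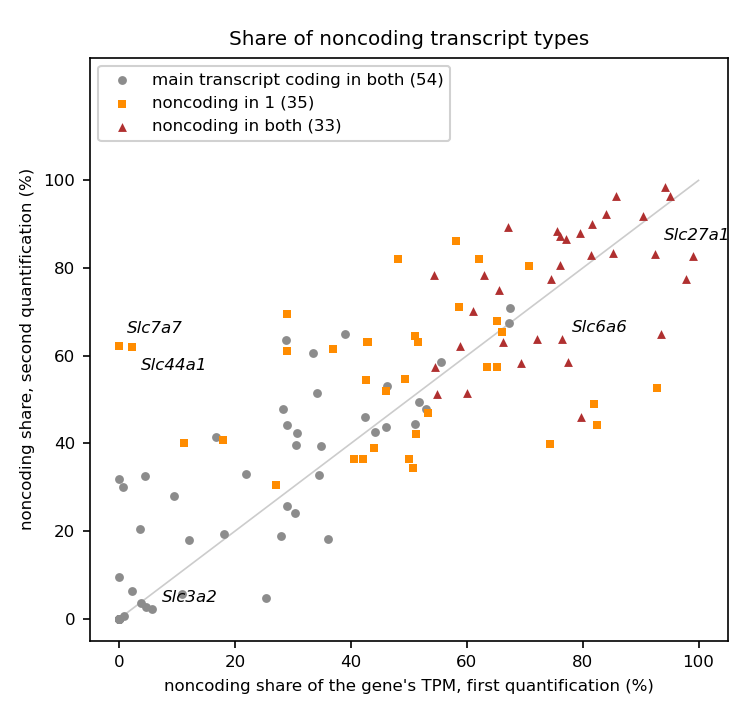
Noncoding share of each member's TPM in the first (x axis, %) and second (y axis, %) quantification, means over 3 libraries, with 54 members whose leading transcript was coding in both in grey, 35 noncoding in 1 in orange and 33 noncoding in both in red. Slc3a2 is at the lower left, Slc27a1 at the upper right, and Slc7a7 and Slc44a1 are near 0% on the x axis and at 62.3% and 62.0% on the y axis.

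Both quantifications gave the 122 members nearly the same order, with a Spearman rho of 0.92, beside 0.94 over the coding genes. The genes share libraries and reads, and 8 of the 10 highest members were in common. Members were chosen by the first quantification, so the rho leaves out genes low in the first and higher in the second. Slc9b2, for example, had mean counts of 3.33 in the first and 718 in the second. The second gave higher levels, with a median ratio of 1.46 beside 1.35 over the coding genes. For Slc6a6 it gave 412 TPM and for Slc43a2 287 TPM, while Slc20a1 (167 TPM) and Slc25a3 (132 TPM) were lower than in the first. The ratio was above 3 in 6 members (4.92%, beside 4.85%). These were Slc7a7 (3.64 and 27.6 TPM in the first and second), Slc22a15 (1.50 and 10.9), Slc44a1 (4.86 and 22.0), Slc39a14 (4.45 and 16.4), Slc25a17 (5.93 and 21.1) and Slc10a7 (8.18 and 24.7). In Slc7a7 the processed transcripts Slc7a7-205 and Slc7a7-207 were listed at 0 TPM in each library by the first quantification and at means of 5.71 and 11.3 TPM by the second. Levels of these 6 genes therefore depend on the quantification.

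**Figure D5:**
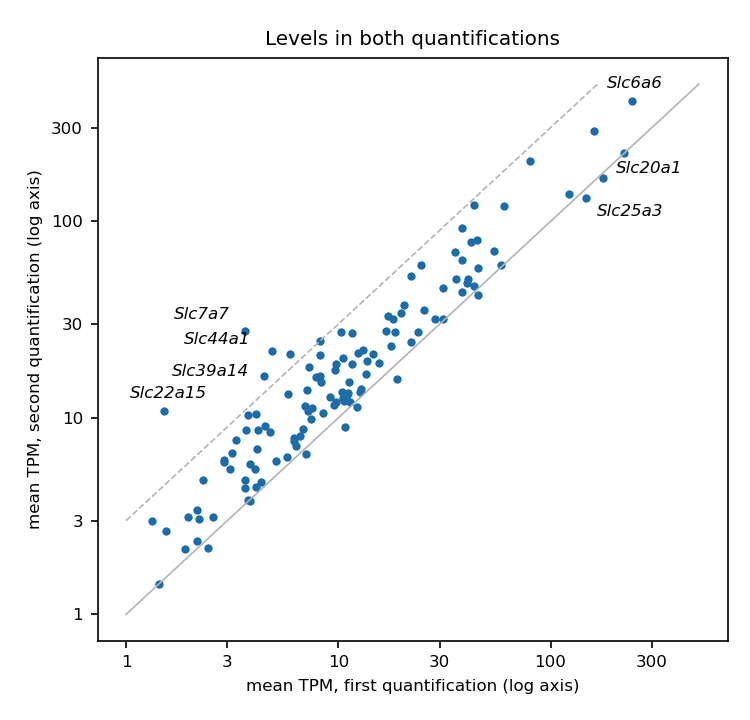
Mean TPM over 3 libraries in the second quantification (y, log axis) against the first (x, log axis) for the 122 members, with a solid line at equal values and a dashed line at 3 times the first. Slc7a7 and Slc22a15 lie farthest above the dashed line, and Slc25a3 and Slc20a1 lie just below the solid line.

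Because the strand setting of the counting is not given, reads of a member and of a gene overlapping it on the other strand cannot be told apart. Such an overlap with a gene of at least 100 expected counts was found for 18 members (14.8%, beside 17.4% of the 7077 genes), and in 7 the other gene had more counts than the member. All of Slc6a6, Slc9a9, Slc20a1, Slc43a2 and Slc15a3 are among the 18. Of 2 genes that overlap Slc6a6 in this way, the one with more reads is Gm44981, with a mean of 2234 expected counts over an overlap of 1.94 kb. The gene that overlaps Slc15a3 is Tmem132a, with 2177 counts and 1.54 kb. For Slc9a9, Slc20a1 and Slc43a2 the other gene had 183, 344 and 570.2 expected counts, beside 9693, 6287 and 14309.5 of the member. Slc26a1, a sulfate carrier with a mean of 297 counts, shares 5.69 kb with Idua at 842 counts, and Slc25a18 shares 0.032 kb with the proton pump gene Atp6v1e1 at 2408 counts.

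Some members have close neighbours. A gene ending within 5 kb upstream on the same strand was found for 8 members (6.56%, beside 7.25%). The nearest of high level was Nfkbie, which encodes the NF-kB inhibitor IkB epsilon and had 76.5 TPM: it ends 704 nt before Slc35b2, whose other end lies 103 nt from the tail of Hsp90ab1 at 33.0 TPM. Tail-to-tail neighbours within 5 kb were found for 18 members (14.8%, beside 9.50%). Among them were Slc2a6, 273 nt from Cacfd1 at 111 TPM, and Slc31a2, 1930 nt from Fkbp15 at 85.6 TPM. Genes starting head to head within 1 kb were found for 9 members (7.38%, beside 5.19%), such as Slc3a2, whose start lies 105 nt from that of the noncoding RNA gene Snhg1 at 23.4 TPM. No part of these neighbours in the members' values was tested.

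A list of 20 related genes outside the symbol rule holds chaperones and partners of carriers together with carriers of other families. Of these, 19 were found in the annotation, 14 had at least 100 expected counts and 0 of the 18 tested passed the edgeR spread test, as no gene did. Their median was 12.1 TPM. Unc93b1, the chaperone of endosomal Toll-like receptors, was highest with 80.0, 102 and 157 TPM, and the lysosomal cation channel Mcoln1 had 33.3, 39.3 and 67.6 TPM. Flvcr1, a carrier of heme and choline, had 31.4, 31.9 and 50.1 TPM. The partner of Slc15a4, 5430427O19Rik, had 13.6, 12.4 and 30.9 TPM, below Slc15a4 in each library. Of the chaperones of lactate carriers, Emb had 6.11, 7.78 and 21.9 TPM and Bsg had 1.78, 4.10 and 5.83 TPM. All of these were highest in library 3, as most members were on the TPM scale.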

How the data were processed

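Chromatin RNA of 3 lipid A-treated macrophage libraries was analysed from tables the authors deposited, made on mm10 and GENCODE M21 as their file notes state. Per the file headers, expected counts, TPM and posterior mean TPM are listed per gene and per transcript, with each transcript's percent of its gene. Also per the file headers, another transcript table gives estimated counts and TPM of a separate quantification, which were summed per gene here. No aligner, quantifier or strand setting is named (not given in the sources used here). Library sizes used annotated mouse genes only (16301150, 17033725 and 16205704 expected counts).

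Members, gene lists and tests were chosen with earlier results of these data known. Substrate groups follow family numbers and textbook knowledge. Genes named were, in each group, the 2 members of highest TPM, the 3 on either side of the minimum, the 6 of widest range, up to 8 with a noncoding leading transcript in both quantifications, 24 genes by name (of which 21 were members), and the partner and marker lists. Others were named after their values were seen, and some members are not reported by name here. The spread test used rounded expected counts in edgeR 4.0.16 (R 4.3.3) with TMM, filterByExpr and an intercept-only quasi-likelihood fit. The F ratio set each gene's deviance over 2 degrees of freedom against the trended prior, with Benjamini-Hochberg adjustment at 0.05, and was checked on simulated counts. Log2 CPM used a prior count of 0.5, and levels log2(TPM + 0.1) for their alternatives. Detection meant a mean of 10 expected counts. Alternatives were other pseudocounts, count minimums, quantifications, scalings and filters, DESeq2 1.42.0, and leaving out each library. Python 3.11.15, pandas 2.3.3, numpy 2.4.6 and matplotlib 3.10.9 were used.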

Additional observations from a re-analysis of the deposited data

How the results depend on the processing

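The number of members, 122, stayed within 1.5 times under each alternative: 167 with the second quantification, 152 and 90 with minimums of 50 and 200 counts, and 121 to 123 without 1 library. The median level was 3.20 in log2(TPM + 0.1). It was 3.84 with the second quantification, 4.75 with TPM rescaled over genes of 300 nt or longer and -1.28 over all 364 genes with no minimum, and 2.97 to 3.36 without 1 library. Pseudocounts and posterior mean TPM moved it by less than the spread between libraries. The spread test called 0 genes with TMM or DESeq2 size factors, 7 with the second quantification, 117 with no filter, 54 as DESeq2 outliers and 0 to 49 without 1 library. Members called were 0 with the second quantification, 1 (Slc15a2) with no filter, 1 (Slc15a2) as a DESeq2 outlier, and 0 to 1 without 1 library. The cause of these differences was not tested. A noncoding leading transcript was found in 45 members, in 44 to 47 without 1 library, in 48 with posterior mean TPM and in 56 with the second quantification. Of 52 named members, 28 moved by more than 1 SD with the second quantification and 4 with posterior mean TPM. All 52 moved with rescaled TPM, which raises every gene of 300 nt or longer. With 1 library left out 0 moved, but leaving out 1 of 3 cannot shift a mean by 1 SD, so this is no check. Of 15 group medians 11 moved with the second quantification. No paired analysis was possible because there is 1 group.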
